A study of Homo sapiens with 12 samples.

Results

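The NME family of nucleoside diphosphate kinases was followed in HEK293T cells depleted of the noncoding RNA snaR-A. The family was defined by name: 6 genes, NME1, NME2, NME3, NME4, NME6 and NME7, of the 63541 gene IDs in the count table, and all 6 passed the filter on low counts, which left 21999 genes tested. HEK293T is a human embryonic kidney line that carries the SV40 large T antigen, described as epithelial. Cells received 12.5 nM of a scramble siRNA or of 1 of 3 snaR-A siRNAs (si-snaR-A#1, called #1 here, with #2 and #3 named likewise) for 48 h, with 3 libraries in each of the 4 groups, made from poly(A)-selected RNA after removal of rRNA. No allele was altered in any group, and every group, scramble included, was transfected. The replicates were described as biological, with control and treated samples handled together on the same day, and came from a single cell line.

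NME proteins move the terminal phosphate of ATP onto nucleoside diphosphates through a phosphorylated histidine, and so supply GTP, CTP, UTP and the deoxynucleotides. NME1 and NME2 are the abundant cytosolic enzymes and assemble into mixed hexamers, and NME1 was the first gene described as a metastasis suppressor. NME3 sits on the mitochondrial outer membrane, NME4 in the intermembrane space and NME6 in the matrix, whereas NME7 is a divergent member found with the gamma-tubulin ring complex at centrosomes. snaR-A is a short RNA polymerase III transcript of hominids, and a microRNA-like fragment of it has been described as lowering NME1 mRNA, which makes NME1 the member for which depletion of snaR-A poses a direct question.

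The sequence around the catalytic histidine is shown because it is what the 6 genes share and what separates them. Each line gives 30 coding bases from GRCh38 (GENCODE 44 models), with the histidine codon in capitals. A script found each window as an asparagine codon, 2 further codons, the histidine codon, 2 further codons and an aspartate codon.

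NME1: aacattataCATggcagtgattctgtggag
NME2: aacatcattCATggcagtgattcagtaaaa
NME3: aacctgattCACggcagcgactcggtggag
NME4: aatgtcatcCACgccagcgactccgtggag
NME6: aacaccaccCATggttcggactctgtggtt
NME7, first: aatgcagcgCATggccctgattcttttgct
NME7, second: aatgctgttCACtgtactgatctgccagag

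The windows lie in coding exons at chr17:51161729-51161758 on the plus strand (NME1, codon 118), chr17:51171488-51171517 on the plus strand (NME2, codon 118), chr16:1770736-1770765 on the minus strand (NME3, codon 135), chr16:400220-400249 on the plus strand (NME4, codon 151), and chr3:48294793-48295093 on the minus strand with an intron inside the window (NME6, codon 129). NME7 has the pattern in each of its kinase domains, at chr1:169298568-169298597 (codon 206) and chr1:169169462-169169491 (codon 355), both on the minus strand. Against NME1, the window differed at 6 bases in NME2, 7 in NME3, 9 in NME4, 11 in NME6, and 13 and 15 in the NME7 windows. Over the whole coding sequence, NME1 and NME2 were identical at 80.9% of 456 aligned bases, with a longest shared run of 23 bases. No word of 31 bases, the default index word of the Salmon program that assigned the reads, was shared between the NME1 and NME2 genes.

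NME1 also holds a stretch complementary to snaR-A, shown because it is the longest one in its mRNA. Each line gives 30 bases, of the NME1 3′ UTR (chr17:51161894-51161923, plus strand) and of snaR-A1 (chr19:47918502-47918531, plus strand, GRCh38). The capitals mark the 11 complementary bases, at chr17:51161903-51161913 in NME1, and their reverse complement in snaR-A1.

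NME1 mRNA: atgggcagaGGACCAGGCTGtaggaaatct
snaR-A1: gttcgaggcCAGCCTGGTCCacatgggtcg

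The run was present in 14 of 14 snaR-A gene copies. The search took the mRNA strand of each canonical transcript and allowed no mismatch or G-U pair. The same 11 bases, GGACCAGGCTG, occurred in 52 of 15075 tested protein-coding genes (0.345%), and a run at least this long occurred in 17.8%. The other members had longest runs of 7 (NME2), 8 (NME3), 10 (NME4), 13 (NME6, an A-rich stretch) and 10 bases (NME7), where the median gene had 9. Such a match is a description of letters and not a mapped binding site. Where the run lies relative to the microRNA-like fragment of snaR-A was not examined.

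Library totals ran from 120.4 M to 180.1 M estimated counts, and replicates differed by more than sampling noise in every group. Levels are CPM, the counts of a gene divided by the library size in M, with library sizes scaled by the trimmed mean of M values (TMM). KRT8, KRT18, VIM and PAX2, listed as genes of HEK293T cells and not as markers of kidney alone, were detected in all 12 libraries (lowest 4.57 CPM). Their summed level was 552.7 to 622.7 CPM in scramble, 508.2 to 591.4 with siRNA #1, 784.2 to 809.1 with #2 and 660.1 to 732.0 with #3. VIM made up most of that sum, at 462.5 to 767.5 CPM over the 12 libraries. KRT18, KRT8 and PAX2 had at most 34.9, 8.87 and 7.36 CPM. Of 8 markers of other cell types, 6 had medians under 1 CPM. The collagen genes COL1A1 (13.0 to 27.0 CPM) and COL3A1 (5.84 to 10.8 CPM) were detected and made up most of the sum of the 8. The summed level of those 8 was 30.7 to 33.6 CPM in scramble, 30.1 to 31.3 with #1, 28.2 to 30.6 with #2 and 23.9 to 25.8 with #3, and the part of these shifts in the NME levels was not tested. snaR-A itself was not analysed here, so the depth of the knockdown in these libraries is not given.

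Per transcript length, NME2 was the most abundant member. Its mean over the 12 libraries was 517 CPM per kb of canonical transcript (SD 30.8), followed by NME1 at 155 (SD 5.997), NME4 at 97.6 (SD 10.0), NME3 at 19.9 (SD 1.98), NME7 at 16.9 (SD 1.62) and NME6 at 10.1 (SD 1.67). Neighbours in this order kept apart in every library except for NME3, which ranged from 17.1 to 23.5 CPM per kb, and NME7, which ranged from 14.3 to 19.1. In scramble alone their means stood in the other order, at 18.3 (17.1 to 20.2) for NME3 and 18.6 (17.7 to 19.1) CPM per kb for NME7, and did not differ beyond their spread. With the length of all annotated exons in place of the canonical transcript, the levels fell to 143, 40.5, 26.6, 13.6, 4.35 and 4.03 CPM per kb in the same order, and the ranges of NME7 and NME6 then overlapped. By that length NME6 was above NME7 in the libraries with #1, at 4.87 to 5.31 against 3.67 to 4.35 CPM per kb. As a share of the counts of all 6 members in scramble, NME2 took 54.0% and NME1 20.4%.

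**Figure D1:**
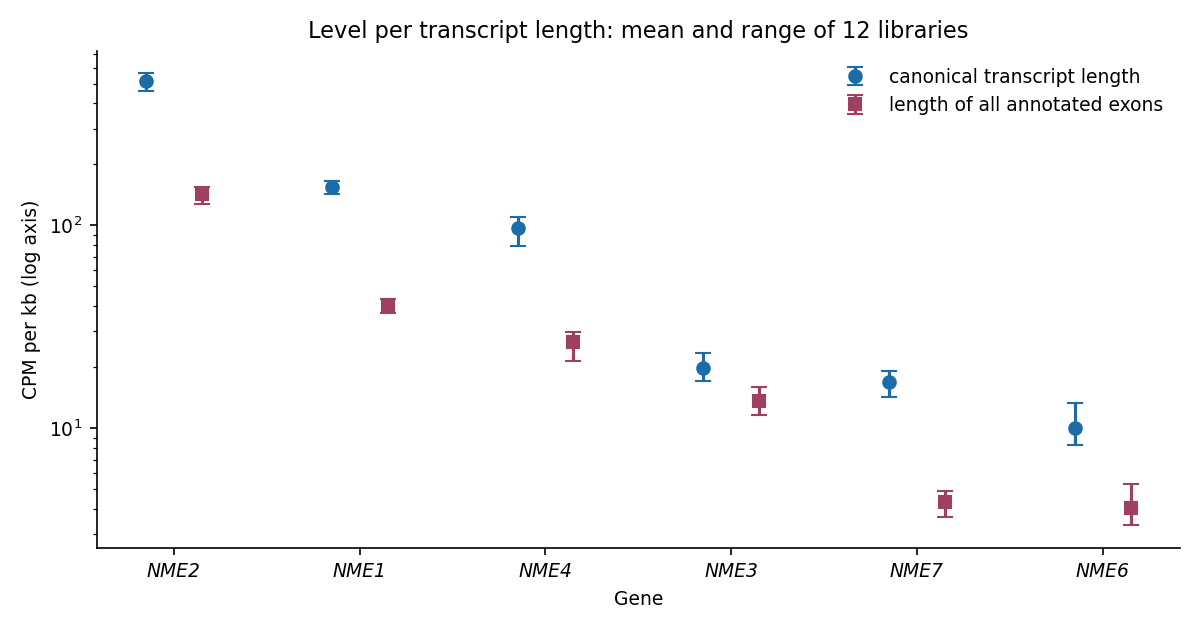
Level of each NME mRNA per kb of transcript (log axis), with the mean (marker) and the lowest and highest of 12 libraries (bars), for the canonical transcript (circles) and for all annotated exons (squares). Over the 12 libraries NME2 has the highest mean and NME6 the lowest, at 517 and 10.1 CPM per kb of canonical transcript.

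Depletion of snaR-A left NME1 mRNA within a few percent of its level in scramble, and none of the siRNAs gave a call. NME1 (ENSG00000239672, chr17:51153559-51162428, plus strand) read 132.8, 138.9 and 147.6 CPM in the scramble libraries. It read 141.5, 139.5 and 126.6 CPM with si-snaR-A#1, 139.5, 134.2 and 136.7 CPM with #2, and 138.6, 138.6 and 143.5 CPM with #3. Of the 9 siRNA libraries, 8 lay inside the scramble range, the exception being the lowest library with #1, and the groups overlapped with every siRNA. The mean was 139.8 ± 7.42 CPM in scramble, 135.9 ± 8.07 with #1, 136.8 ± 2.66 with #2 and 140.2 ± 2.85 with #3 (SD, n = 3).

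The fold changes of NME1 were 0.972 with #1, 0.979 with #2 and 1.00 with #3, with edgeR adjusted p of 0.535, 0.700 and 0.956. For the mean of the siRNAs, the fold change was 0.985 with a 95% interval of 0.927 to 1.05, so that a change beyond these bounds lies outside the interval at this depth and replication. Adjusted p-values came from edgeR's quasi-likelihood test with Benjamini-Hochberg adjustment over the 21999 genes, and calls were made under 0.05. In bulk RNA, less NME1 RNA per cell and fewer cells that express it cannot be told apart, and the same holds for every gene below. Of the 52 genes that carry the snaR-A complementary run, NME1 among them, 28 were called with #1, 13 with #2 and 17 with #3, or 53.8%, 25.0% and 32.7%. Over all genes tested, 45.2%, 25.8% and 29.4% were called in those comparisons, which share the scramble libraries. By direction, the carriers called were 20 higher and 8 lower with #1, 6 and 7 with #2, and 10 and 7 with #3. Over all genes, 4814 of 9941 called were higher with #1, 3018 of 5673 with #2 and 3619 of 6474 with #3. The median log2 fold change of the carriers was 0.088, 0.00025 and 0.013, beside -0.019, -0.031 and -0.033 over all genes. This difference was not tested. The 52 were drawn from protein-coding genes, whereas all genes tested include noncoding genes and genes of low count. With a filter at a mean of 1 CPM, 9037, 5855 and 6487 of 14538 genes were called, larger shares than among the 52. Under that filter the median log2 fold change over all genes was 0.011, 0.0026 and -0.0023. The carriers were not matched to genes of like level.

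**Figure D2:**
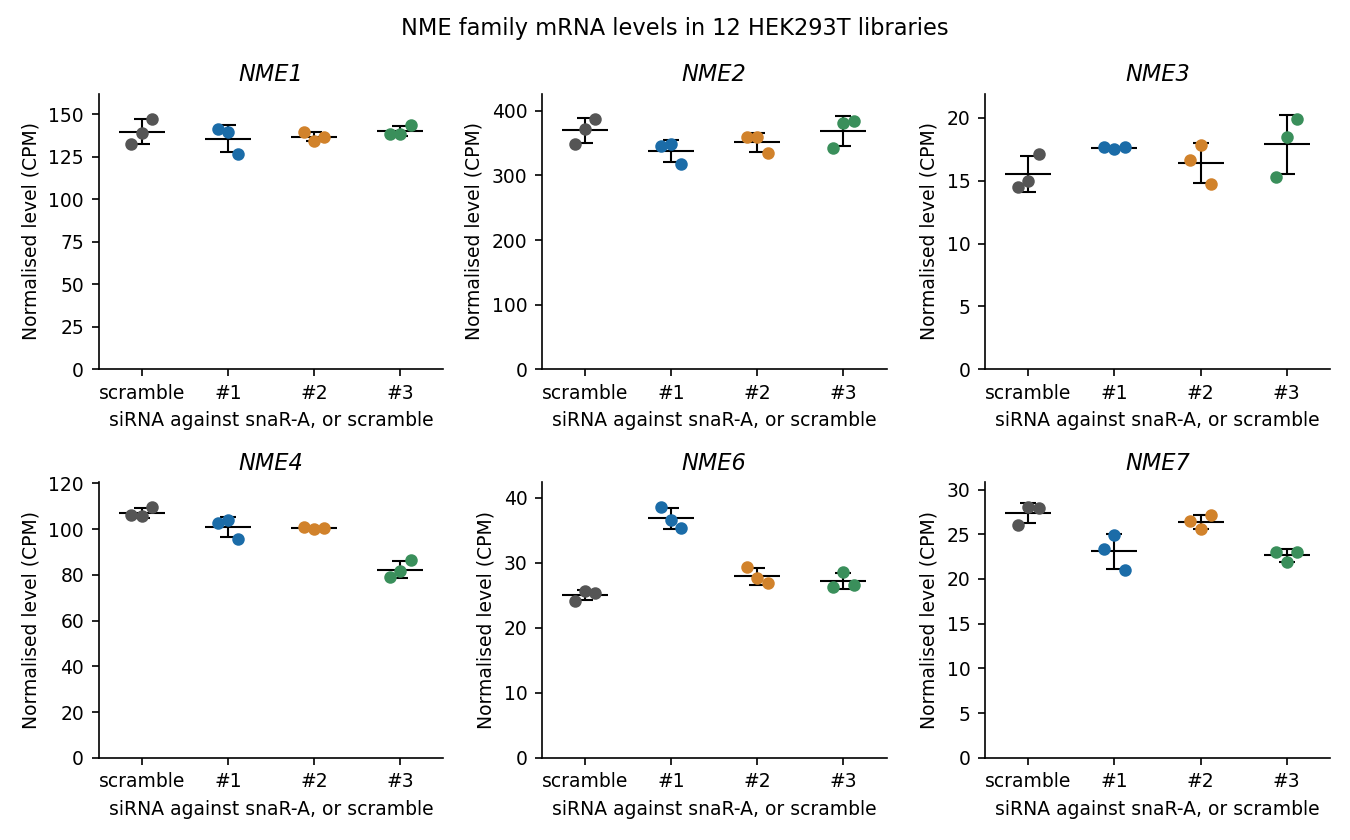
CPM of each NME mRNA (axes from 0) in the 3 scramble libraries and the 3 libraries of each siRNA; points are libraries, the wide bar is the group mean and the error bar its SD. NME1 and NME2 overlap between groups, NME6 is highest with siRNA #1 (35.3 to 38.6 CPM) and NME4 lowest with siRNA #3 (79.0 to 86.3 CPM).

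NME2, the partner of NME1 in the mixed hexamer and a gene also known as an activator of MYC transcription, was not called with any siRNA. NME2 (ENSG00000243678, chr17:51165435-51171744, plus strand) had 349.1, 371.6 and 387.9 CPM in scramble and 345.3, 349.1 and 318.3 CPM with siRNA #1. With #2 it had 360.0, 359.2 and 334.3 CPM, and with #3 342.4, 381.1 and 384.1 CPM. With #1, 2 of the 3 libraries were under the lowest scramble library and the other was level with it, so the groups overlapped. The fold change with #1 was 0.914, with a 95% interval of 0.837 to 0.997 and an edgeR adjusted p of 0.0854. Without scramble replicate 1 the same comparison was called, at an edgeR adjusted p of 0.0440. The fold changes with #2 and #3 were 0.950 and 0.999 (edgeR adjusted p 0.401 and 0.990).

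NME1 and NME2 are adjacent, and the annotated readthrough gene NME1-NME2 joins their exons. Of the bases in its exons, 51.4% were also annotated to NME1 and 48.6% to NME2, and 98.1% of its 31-base words (1239 of 1263) occurred in another gene. Its counts therefore depend on how the assignment split reads, and they are uncertain. The readthrough row had 9.26, 8.06 and 10.3 CPM in scramble, 5.51, 5.11 and 4.53 CPM with #1, 8.88, 7.87 and 8.62 CPM with #2, and 8.41, 9.21 and 8.83 CPM with #3. All 3 libraries with #1 were under every other library, and the fold change against scramble was 0.549 (95% interval 0.473 to 0.637, edgeR adjusted p 1.26e-05). It was also lower with #1 than with #2 (fold 0.597, edgeR adjusted p 4.57e-05) and than with #3 (fold 0.573, edgeR adjusted p 2.18e-05). The row held 1.77% of the counts of the 3 genes in scramble and 1.05% with #1.

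The sum of NME1, NME2 and NME1-NME2 was fitted as 1 row. It does not depend on that split unless the counts were scaled by transcript length, which is not known here. The sum was 518.5 ± 27.3 CPM in scramble, 478.5 ± 25.1 with #1, 496.4 ± 15.0 with #2 and 518.2 ± 25.2 with #3 (SD, n = 3). Its log2 fold changes were -0.12, -0.063 and -0.0008 with edgeR adjusted p of 0.0989, 0.444 and 0.994, and none was called. Without scramble replicate 1 the comparison with #1 was called (edgeR adjusted p 0.0484).

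NME2 made up 72.6% ± 0.205 of the NME1 plus NME2 counts in scramble, a ratio that needs no scaling between libraries. The share was 71.3% ± 0.331 with #1, 71.9% ± 0.919 with #2 and 72.4% ± 1.116 with #3 (SD, n = 3). All 3 libraries with #1 were below the 3 scramble libraries, a difference of -1.24 percentage points. The exact two-sided permutation test gave p = 0.1 for #1, the smallest p that 3 against 3 libraries allow, and 0.5 after adjustment over the 5 shares tested. For the 9 siRNA libraries against scramble, the exact permutation p was 0.255 (adjusted 0.5). Of the 9, 6 were below every scramble library and 3 above every scramble library.

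**Figure D3:**
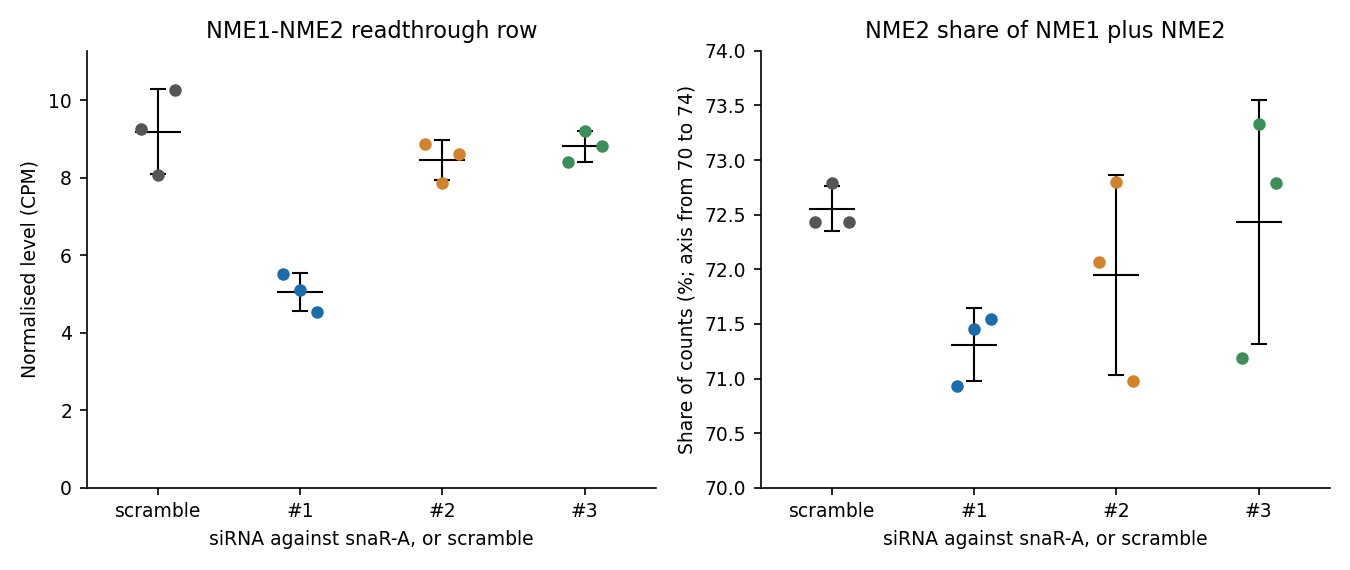
Left, CPM of the NME1-NME2 readthrough row per library (axis from 0); right, the NME2 share of NME1 plus NME2 counts in percent (axis from 70 to 74). Points are libraries, wide bars group means and error bars SD of 3 libraries; with siRNA #1 the readthrough row is 4.53 to 5.51 CPM, under every other library.

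Among the members that reside in mitochondria, NME6 rose, NME4 fell with 1 siRNA, and NME3 was not called. NME6 (ENSG00000172113, chr3:48290722-48301685, minus strand) had 24.1, 25.6 and 25.4 CPM in scramble and 38.6, 36.6 and 35.3 CPM with siRNA #1. With #2 it had 29.4, 27.6 and 26.9 CPM, and with #3 26.3, 28.5 and 26.7 CPM. Every one of the 9 siRNA libraries was above the highest scramble library, and the libraries with #1 were above all others.

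The fold change of NME6 was 1.47 with #1 (95% interval 1.36 to 1.59, edgeR adjusted p 1.71e-06), 1.117 with #2 (1.03 to 1.21, edgeR adjusted p 0.0352) and 1.09 with #3 (1.01 to 1.17, edgeR adjusted p 0.101). The mean of the siRNAs was 1.21-fold scramble (edgeR adjusted p 0.000249). Groups that do not overlap were common over all genes, at 52.9% with #1, 43.3% with #2, 43.4% with #3 and 12.1% for the 9 siRNA libraries together. The call with #2 was lost without #2 replicate 1 (edgeR adjusted p 0.144), #2 replicate 2 (0.0690), scramble replicate 1 (0.126) or scramble replicate 2 (0.0556), and under upper quartile scaling (0.0891). On the opposite strand, the long noncoding gene ENSG00000289043 overlaps 3.27% of the exonic bases of NME6, and it read 0.618 ± 0.04997 CPM in scramble and 1.71 ± 0.385 CPM with #1 (fold 2.77, edgeR adjusted p 2.18e-05). The processed pseudogene FCF1P2 lies over 8.03% of them on the same strand and stayed under 0.5 CPM. Use of strand in the read assignment was not given in the sources used here.

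NME4 (ENSG00000103202, chr16:396725-410367, plus strand), which binds cardiolipin in the intermembrane space, had 106.0, 105.5 and 109.6 CPM in scramble. It had 102.7, 104.0 and 95.7 CPM with #1, 101.0, 99.9 and 100.6 CPM with #2, and 79.0, 81.5 and 86.3 CPM with #3. Each siRNA group lay under the scramble group, and the group with #3 lay under all others. The fold change was 0.942 with #1 (edgeR adjusted p 0.113), 0.939 with #2 (edgeR adjusted p 0.135) and 0.768 with #3 (95% interval 0.721 to 0.818, edgeR adjusted p 2.52e-05). The comparison with #2 became a call under upper quartile scaling (edgeR adjusted p 0.0143) and with a filter at a mean of 1 CPM (0.0443). DECR2 shares 15.6% of the exonic bases of NME4 on the same strand, and its libraries read 0 to 2.36 CPM in scramble and 1.43 to 2.54 CPM with #3.

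NME3 (ENSG00000103024, chr16:1770320-1771561, minus strand) had 14.5, 15.0 and 17.1 CPM in scramble. With #1 the libraries were tightly placed at 17.7, 17.5 and 17.7 CPM, while #2 gave 16.7, 17.9 and 14.7 CPM and #3 gave 15.3, 18.5 and 19.9 CPM. The libraries with #1 were above the scramble group, and those with #2 and #3 overlapped it. Fold changes were 1.14, 1.06 and 1.15, with 95% intervals of 0.982 to 1.31, 0.916 to 1.22 and 0.998 to 1.33 and edgeR adjusted p of 0.143, 0.591 and 0.131. NME3 was called with #1 when only those 6 libraries were fitted (edgeR adjusted p 0.0406), and without #3 replicate 1 it was called with #3 (0.0224) and in the mean of the siRNAs (0.0444).

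NME7, the member of the gamma-tubulin ring complex, fell with siRNAs #1 and #3. NME7 (ENSG00000143156, chr1:169132531-169367948, minus strand) had 26.04, 28.04 and 27.96 CPM in scramble, 23.4, 24.9 and 21.0 CPM with #1, 26.5, 25.6 and 27.1 CPM with #2, and 23.0, 21.8 and 23.1 CPM with #3. The groups with #1 and #3 lay under scramble, and the group with #2 overlapped it. Fold changes were 0.844 with #1 (95% interval 0.772 to 0.923, edgeR adjusted p 0.00439), 0.965 with #2 (0.883 to 1.05, edgeR adjusted p 0.587) and 0.828 with #3 (0.758 to 0.905, edgeR adjusted p 0.00389). The mean of the siRNAs was 0.877-fold scramble (edgeR adjusted p 0.00845), a call lost without scramble replicate 2 (0.0529) or 3 (0.0597). ATP1B1, a subunit of the sodium pump, overlaps 5.02% of the exonic bases of NME7 on the opposite strand. Its fold change was 1.18 with #1 (edgeR adjusted p 0.00131) and 1.03 with #3 (edgeR adjusted p 0.601).

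In counts, 2 of the 6 members were called with siRNA #1 (NME6 higher, NME7 lower), 1 with #2 (NME6 higher), 2 with #3 (NME4 and NME7 lower) and 3 in the mean of the siRNAs (NME6 higher, NME4 and NME7 lower). The share called over all genes was 45.2%, 25.8%, 29.4% and 32.2% in those comparisons, so with each single siRNA the count of members was close to or below the background. With a filter at a mean of 1 CPM, larger shares of all genes were called, at 9037, 5855, 6487 and 7041 of 14538. The median size of the log2 fold change over the members was 0.16 with #1, 0.08 with #2 and 0.16 with #3, beside 0.29, 0.19 and 0.21 over all genes. All genes include many of low count, whereas each member had at least 1852 counts in every library. The members were not compared with genes of like level.

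**Figure D4:**
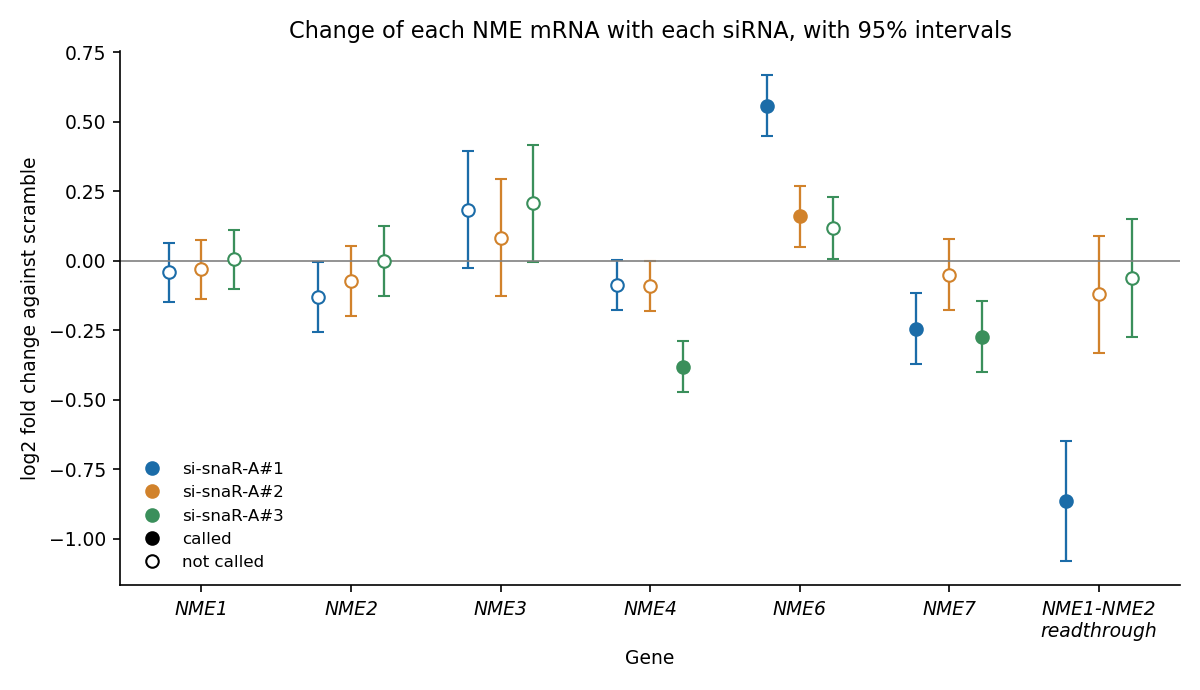
Log2 fold change of each NME mRNA and of the NME1-NME2 readthrough row with each siRNA against scramble; bars are 95% intervals from the edgeR fit, filled points were called and open points were not. NME1 stays between -0.04 and 0.00, NME6 reaches 0.56 and the readthrough row -0.86, both with siRNA #1.

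Direct tests between siRNAs asked whether the members answered the 3 oligonucleotides differently. Between #1 and #2, 2 members were called (46.7% of all genes): NME6 was 1.32-fold higher with #1 (edgeR adjusted p 3.13e-05) and NME7 was 0.875-fold (edgeR adjusted p 0.0168). Between #1 and #3, 2 members were called (48.6% of all genes): NME6 was 1.36-fold higher with #1 (edgeR adjusted p 1.22e-05) and NME4 1.23-fold (edgeR adjusted p 7.66e-05). Between #2 and #3, 2 members were called (15.6% of all genes): NME4 was 1.22-fold higher with #2 (edgeR adjusted p 0.000604) and NME7 1.17-fold (edgeR adjusted p 0.0234). NME1, NME2 and NME3 were called between no pair of siRNAs, with 95% intervals of the NME1 fold between 0.900 and 1.07 over the 3 pairs. NME2 was called between #1 and #3 without #3 replicate 1 (edgeR adjusted p 0.0225, fold 0.914 with all libraries). The NME7 call between #1 and #2 was lost without #2 replicate 3 (edgeR adjusted p 0.0608). The NME7 call between #2 and #3 was lost without #2 replicate 1 (0.0715), #2 replicate 3 (0.0889), #3 replicate 1 (0.0511) or #3 replicate 2 (0.0983).

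Of the other genes of the family, none besides the readthrough row was called in the mean of the siRNAs. NME5 had 0.620 ± 0.0774 CPM and NME9 0.472 ± 0.124 CPM in scramble (SD, n = 3). NME8, of cilia, read 0 in all scramble libraries, where 3 counts would be the 95% upper limit for a count of 0 under counting noise alone. It had at most 4 counts in a library with #1 and 0 in every library with #2 and #3. The NME2 pseudogene NME2P1 had at most 1 count in any library, although 4.67% of the 31-base words of NME2 occur in it. RP2, which carries an NME-like domain and regulates the GTPase ARL3, had 40.1 ± 2.15 CPM in scramble and was not called, with log2 fold changes of 0.07, 0.05 and -0.05 and edgeR adjusted p of 0.305, 0.549 and 0.519.

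In the mean of the siRNAs 32.2% of all genes were called, a share given beside the gene lists that follow. It includes genes of low count. With a filter at a mean of 1 CPM, 7041 of 14538 genes were called in the mean, a larger share. The listed genes were not matched to genes of like level. A list above 32.2%, or above the share of all genes called with a single siRNA, is therefore not shown to stand out. Nucleoside monophosphate kinases make the diphosphates that NME enzymes use. Of 12 tested, 2 were higher, 2 lower and 8 not called in the mean, a share near 32.2%. More were called with the single siRNAs: 9 with #1 (4 higher, 5 lower), 7 with #2 (3 higher, 4 lower) and 6 with #3 (3 higher, 3 lower). Over all genes, 45.2%, 25.8% and 29.4% were called in those comparisons. In the mean, the median log2 fold change of the 12 was -0.03 beside -0.04 over all genes. CMPK1, the UMP and CMP kinase, fell from 173.8 ± 6.13 CPM to 125.2 ± 9.05 with #1, 145.4 ± 1.42 with #2 and 103.4 ± 2.16 with #3, and edgeR adjusted p was 4.83e-06, 0.00173 and 3.58e-07. AK5, an adenylate kinase, rose by 0.40 on the log2 scale in the mean (SE 0.11, edgeR adjusted p 0.0141).

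Of 24 enzymes of purine and pyrimidine synthesis and salvage, 12 were higher and 1 lower in the mean of the siRNAs, where 32.2% of all genes were called, with a median log2 fold change of 0.11 beside -0.04 over all genes. PRPS1, which makes the ribose phosphate precursor, rose from 241.9 ± 9.68 CPM to 323.2 ± 19.8, 330.2 ± 22.7 and 308.6 ± 11.4 CPM with the siRNAs (edgeR adjusted p 7.00e-05, 0.00011 and 0.000604). DHODH, of pyrimidine synthesis in mitochondria, was the only one lower in the mean (log2 -0.28, edgeR adjusted p 0.0131). PAICS, a purine synthesis enzyme and the most abundant, was lower with #1 (log2 -0.40, edgeR adjusted p 3.04e-05) and higher with #2 (log2 0.15, edgeR adjusted p 0.0415).

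Of 14 enzymes of deoxynucleotide supply, 4 were higher and 3 lower in the mean (32.2% of all genes called), with a median log2 fold change of 0.0042 beside -0.04 over all genes. RRM2, the small subunit of ribonucleotide reductase, rose from 259.2 ± 9.45 CPM to 312.2 ± 13.8, 409.5 ± 3.59 and 372.6 ± 17.4 CPM (edgeR adjusted p 0.000368, 7.61e-07 and 4.00e-06). ITPA, which clears inosine triphosphate, rose from 16.2 ± 0.239 CPM to 29.8 ± 1.63, 19.2 ± 0.741 and 22.2 ± 0.756 CPM (edgeR adjusted p 2.83e-08, 0.00325 and 2.38e-05). TK2, the mitochondrial thymidine kinase, was higher with #1 (log2 0.40) and lower with #2 (log2 -0.79) and #3 (log2 -0.60), each past the edgeR test, with adjusted p of 0.000766, 1.02e-05 and 7.83e-05.

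Partners of NME proteins were read from lists of the same kind. Of 12 genes of the gamma-tubulin ring complex, which holds NME7, 3 were higher and 1 lower in the mean, a share near the 32.2% of all genes called. With the single siRNAs, 5 were called with #1, 7 with #2 and 3 with #3, beside 45.2%, 25.8% and 29.4% of all genes. TUBGCP5 rose by 0.39 (edgeR adjusted p 3.42e-05) and the abundant subunit MZT1 by 0.39 (edgeR adjusted p 8.71e-05) on the log2 scale, and TUBG1, gamma-tubulin itself, fell by 0.17 (edgeR adjusted p 0.00362). Of 7 dynamin family GTPases, to which NME enzymes can feed GTP, 3 were higher and none lower, beside 32.2% of all genes called (5 were called without #1 replicate 3). MFN1, of mitochondrial fusion, read 70.8 ± 1.24 CPM in scramble, 71.9 ± 4.07 with #1, 103.3 ± 2.16 with #2 and 113.1 ± 0.711 with #3, and passed the edgeR test with #2 (adjusted p 1.28e-06) and #3 (2.05e-07). OPA1, of inner membrane fusion, rose by 0.26 in the mean (edgeR adjusted p 0.00017). Of 4 tested genes of the SET complex, in which NME1 acts as a nuclease, HMGB2 alone was called in the mean, higher by 0.14 on the log2 scale (edgeR adjusted p 0.0131), a count that was 0 without scramble replicate 1, and SET had a log2 fold change of -0.05 (edgeR adjusted p 0.383).

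MYC rose with every siRNA, from 165.3 ± 5.65 CPM in scramble to 332.8 ± 19.4, 194.0 ± 4.59 and 205.4 ± 10.8 CPM (edgeR adjusted p 1.22e-08, 0.00496 and 0.000528). It belongs to a list of 4 other partners or reported targets of NME proteins, of which 3 were higher and none lower in the mean, where 32.2% of all genes were called. Of 16 other metastasis suppressors, 5 were higher and 4 lower, beside the same 32.2%. TXNIP, a thioredoxin inhibitor, rose by 0.38 in the mean (edgeR adjusted p 0.000161), and CDH1, the epithelial cadherin, fell by 0.49 (edgeR adjusted p 1.06e-05). NDRG1, the most abundant, had log2 fold changes of -0.04 with #1 (edgeR adjusted p 0.605), 0.12 with #2 (0.147) and -0.57 with #3 (1.11e-05), so that its call in the mean (log2 -0.16, edgeR adjusted p 0.0155) came with a call in #3 and in neither other siRNA. Of 7 genes reported to fall when NME1 is raised, MET alone was called in the mean (32.2% of all genes), higher by 0.22 on the log2 scale (edgeR adjusted p 0.00197), and 2 were called without #2 replicate 1.

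**Figure D5:**
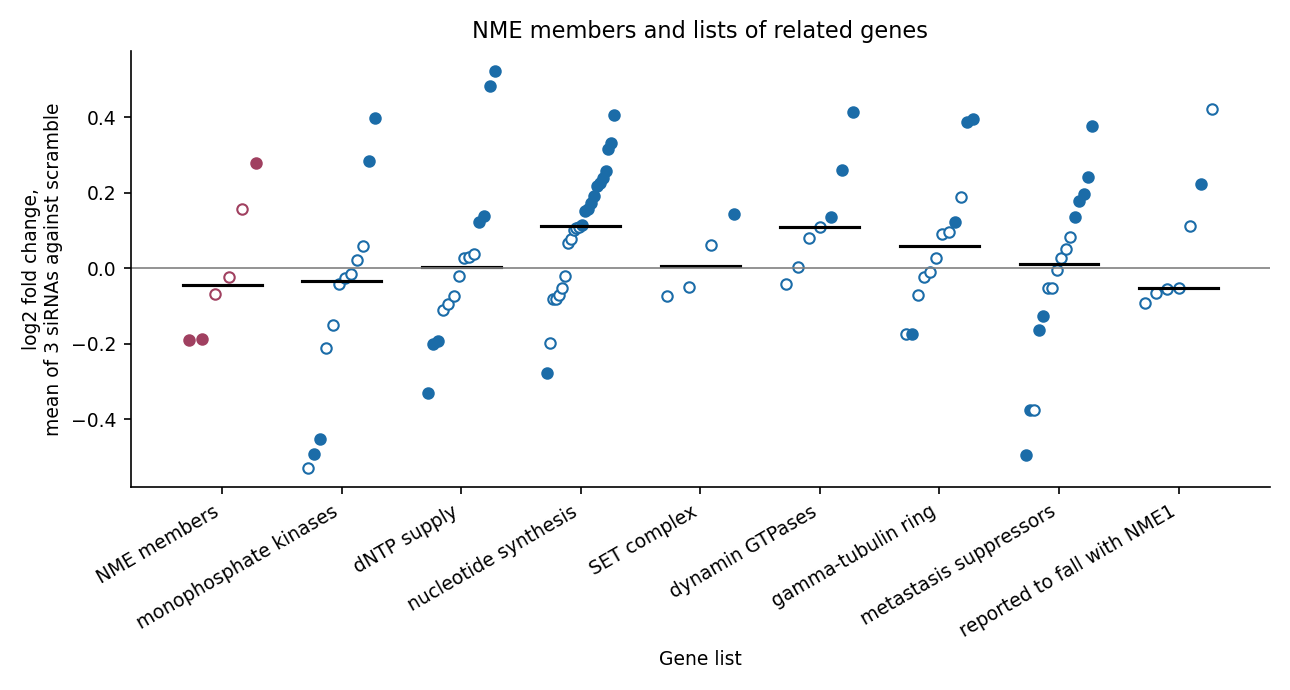
Log2 fold change averaged over the 3 siRNAs for the 6 NME members (red) and the tested genes of 8 related lists (blue), sorted within each list. Filled points were called, open points were not, and black lines are medians, 0.11 for nucleotide synthesis and -0.05 for the members.

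The genes whose levels followed each member most closely were found by Pearson's r of log2 CPM over the 12 libraries, among 14529 genes, and are given as a description with no test. The libraries fall into 4 groups and share their scaling. For NME1 they were GOT2, a mitochondrial aminotransferase (r = 0.905), and GLRX3, a glutaredoxin (r = 0.888), and the lowest were ENSG00000290832 (r = -0.900) and ZNF397 (r = -0.892). For NME2 they were PYURF (r = 0.981) and RPS3, a ribosomal protein (r = 0.966). NME3 was followed by TSPO, of the mitochondrial outer membrane (r = 0.942), and by ATP5F1D, a subunit of ATP synthase (r = 0.918). NME4 was followed by MAP2K1, the kinase upstream of ERK (r = 0.987), whose log2 fold changes were -0.13, -0.15 and -0.63 with the siRNAs beside -0.09, -0.09 and -0.38 for NME4, and by ENSG00000285426 (r = 0.979). NME6 was followed by the noncoding SOX21-AS1 (r = 0.982) and by FAM53B (r = 0.982), and NME7 by ACADM, of fatty acid oxidation (r = 0.939), and CCNC, cyclin C (r = 0.934).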

How the data were processed

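Reads were trimmed with Trim Galore and assigned to the transcriptome with Salmon by the authors, who deposited estimated counts per Ensembl gene (hg38 in the submitters' notes). Which transcriptome was indexed, how transcripts were summed to genes and whether strand was used are not given in the sources used here. No deposited value above 0 was whole, so the estimated counts may have been scaled by transcript length, which limits comparisons of levels between genes. Values were rounded to whole numbers.

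In R 4.3.3, edgeR 4.0.16 (filterByExpr on the 4 groups, TMM, quasi-likelihood test, 1 coefficient per group) was fitted to all 12 libraries, with Benjamini-Hochberg adjustment over 21999 genes and calls at an adjusted p under 0.05. The SE is the log2 fold change over the square root of F. The fit was run on simulated counts in which a small part of the genes was changed, in 1 group only. It was therefore not tested under changes as broad as those called here. Replicates were labelled as separate samples, so p-values measure the spread between cultures of 1 line. Gene models came from GENCODE 44 and snaR-A positions from RefSeq (GRCh38). The members and lists were chosen with earlier results of these data known, and genes overlapping members in exons were added after the files were seen. Named genes were the members, other NME relatives, for each list the called gene with the largest rise, the largest fall and the highest level, and the 2 genes most like each member (for NME1 also the 2 least like it), on log2 CPM among genes averaging 1 CPM or more with a prior count of 2. One gene that this rule names is not reported here. Shares were tested by exact permutation in scipy 1.17.1. Alternatives covered scaling, filters, DESeq2 1.42.0, the exact test of edgeR, the samples fitted, a replicate block and leaving out each library. Counting intervals were not used except for the limit given for NME8, and the depth of 120.4 M to 180.1 M counts sets a precision finer than the spread between replicates. Same-numbered libraries did not deviate together (correlations of -0.24 to 0.17 over 18 pairs), so the numbers were not used as pairs.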

Additional observations from a re-analysis of the deposited data

Results flagged for a closer look

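The effects of the siRNAs against scramble differed between siRNAs for 3 members, by the edgeR quasi-likelihood test of the difference itself (a contrast of the 2 siRNA groups, in which the scramble libraries cancel). NME6 differed between #1 and #2 by 0.40 on the log2 scale and between #1 and #3 by 0.44, higher with #1 in 3 of 3 libraries against each. NME4 differed by 0.29 between #1 and #3 and by 0.29 between #2 and #3, lower with #3 in 3 of 3 libraries. NME7 had a log2 difference of -0.19 between #1 and #2 and of 0.22 between #2 and #3, lower with #1 and with #3 than with #2 in 3 of 3 libraries each. edgeR adjusted p for these differences were 3.13e-05, 1.22e-05, 7.66e-05, 0.000604, 0.0168 and 0.0234 in the order given.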

How the results depend on the processing

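Over the alternatives run, NME6 with #1, NME4 with #3, NME7 with #1 and #3 and the fall of the readthrough row with #1 kept their direction and their call. Upper quartile scaling and the filter at a mean of 1 CPM turned the sign of small uncalled log2 fold changes: NME1 with #3 (-0.048 and -0.022), NME1 between #1 and #2 (0.042 and 0.023) and between #1 and #3 (0.014 and 0.0076), and NME3 between #1 and #3 (0.038 and 0.033). RLE scaling, no filter and DESeq2 turned NME2 with #3 (0.013, 0.0035 and 0.013) and NME4 between #1 and #2 (-0.0075, -0.0086 and -0.0075), and RLE scaling turned the sum row with #3 (0.014). The filter at 1 CPM gave 2 members called with #2 in place of 1. With all annotated exons as the length, levels were 40.5 (NME1), 143 (NME2), 13.6 (NME3), 26.6 (NME4), 4.03 (NME6) and 4.35 (NME7) CPM per kb.

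Leaving out each library gave these ranges of log2 fold change: NME1 with #1 -0.078 to 0.0065, with #2 -0.066 to 0.031, with #3 -0.030 to 0.050, in the mean -0.058 to 0.028, between #1 and #2 -0.046 to 0.020 and between #1 and #3 -0.078 to 0.00033. NME2 with #3 gave -0.040 to 0.052, NME3 between #1 and #3 -0.13 to 0.060, NME4 between #1 and #2 -0.035 to 0.022, NME7 between #1 and #3 -0.030 to 0.090 and the readthrough row with #3 -0.14 to 0.030. The sum row gave -0.15 to -0.074 with #1, -0.16 to -0.074 between #1 and #3 and -0.038 to 0.042 with #3. The NME2 share with #3 differed from scramble by -0.57 to 0.51 points. Members called ranged from 0 to 1 with #2, 2 to 3 with #1 and with #3, 2 to 4 in the mean, 2 to 3 between #1 and #3, and 1 to 2 between #1 and #2 and between #2 and #3. The cause of these shifts was not tested.

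Replicate numbers paired the libraries neither by label nor by correlation. For 3 of 12 libraries, the mean correlation with libraries of the other groups was highest for their own number. With the replicate block, no member changed its call: NME6 with #2 had an edgeR adjusted p of 0.0489, 3 members were called in the mean, and NME1 in the mean had a log2 fold change of -0.022. Upper quartile scaling moved the split of all genes called with #2 from 3018 higher of 5673 to 2439 of 6023, and with #3 from 3619 of 6474 to 2885 of 6759. The edgeR exact test and fits of single groups could give no value for the mean of the siRNAs. By Spearman's rho, 1 of the 2 genes most like NME1, NME2, NME3 and NME7 was kept, and 0 of those most like NME4. For NME6, SOX21-AS1 tied for the highest rho (0.972) with MED15 and MYG1.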
